A study of Arabidopsis thaliana with 12 samples.

Results

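Among probes that the platform annotation pairs with exactly 1 gene, 64 of 692 were at or close to the bottom of the deposited scale, and these 64 are described here. They were selected on their deposited values: a probe was chosen when fewer than 4 of the 6 psao arrays, or fewer than 4 of the 6 wild-type (WT) arrays, had a value above 0. The whole table held 3439 probes. The study compared Arabidopsis thaliana plants of the psao mutant, in which the photosystem I protein PSI-O is missing, with WT plants, 6 expression arrays of each, with total RNA as the molecule. Both genotypes were of ecotype Columbia 0. No source used here gives the tissue, age, growth conditions, allele or number of plants, nor whether arrays of 1 genotype came from separate plants. Of 14 loci looked for as markers of seeds, roots, pollen and leaves, 0 had a 1-gene probe, so the tissue was not checked.

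PSI-O is a small membrane subunit of photosystem I, the complex that passes light-driven electrons to ferredoxin. It sits near the side of the complex where mobile light-harvesting proteins dock. A transcript can give little signal on an array because it is rare in the sampled tissue, because its probe binds weakly, or because a background correction takes its signal away. In RNA of whole tissue, fewer cells with a transcript and less of it per cell cannot be told apart.

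The deposited intensities carry no unit beyond the array itself, since the brightest probe of each array stands at 100. The table holds no detection call, so the words near or below detection stand only for a deposited value of 0 or for few arrays above 0. No source used here says what a 0 stood for in the scanner output. The values that chose the 64 probes are the same values described below. Differences between psao and WT in these probes are therefore given as descriptions, with no test.

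WT arrays 1 and 2 stood apart from the other 10 arrays. Of all 3439 probes, between 4.22% and 7.33% were at 0 on the psao arrays. On the WT arrays the share was 14.5% and 15.1% for arrays 1 and 2, and between 4.68% and 6.25% for the other 4. Median intensity of all probes was 0.198 to 0.273 on the psao arrays, against 0.0995 and 0.097 on WT arrays 1 and 2 and 0.180 to 0.195 on WT arrays 3 to 6. Every psao array thus had a higher median than every WT array, and the deposited values carry this offset between the genotypes. The share at 0 averaged 5.84% ± 1.29 (SD, n = 6) in psao and 8.65% ± 4.82 (SD, n = 6) in WT. This difference of -2.81 percentage points was within the spread between arrays (exact permutation test, two-sided, p = 0.303). That test and the SDs count each array as 1 unit. Yet arrays numbered 1 and 2, 3 and 4, or 5 and 6 of a genotype had close medians, such as 0.272 and 0.273 on psao arrays 1 and 2. Whether such couples of arrays are independent is not known. With couples averaged, 3 against 3, the difference was also -2.81 points (exact permutation test, two-sided, p = 0.7). On arrays 3 to 6 alone the difference was -0.313 points (exact permutation test, two-sided, p = 0.686).

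**Figure D1:**
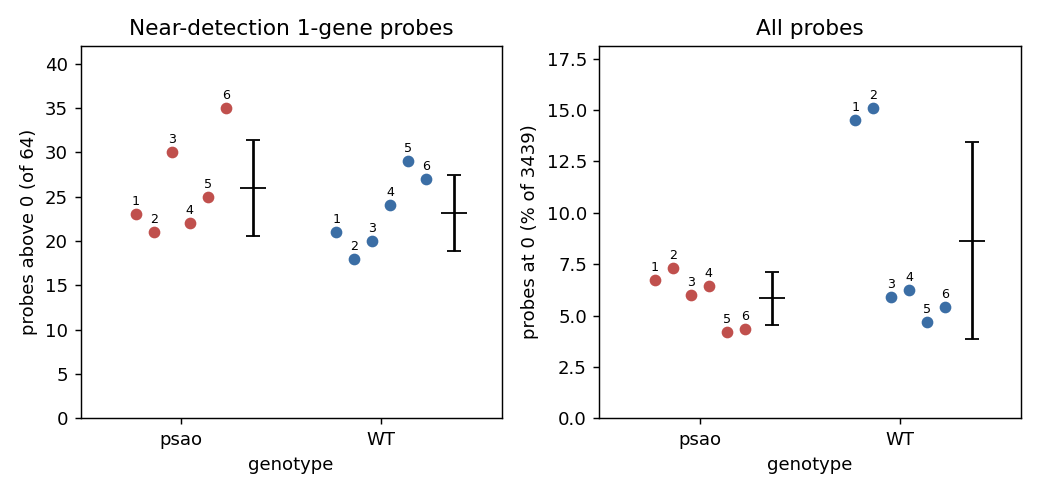
Number of the 64 near-detection probes above 0 (left) and share of all 3439 probes at 0 in percent (right) on each array, labelled by its number, for psao and WT, with the mean and SD of 6 arrays. Between 21 and 35 of the 64 probes were above 0 on a psao array and between 18 and 29 on a WT array, and WT arrays 1 and 2 lie far above the other arrays only in the share at 0.

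On 11 of the 12 arrays a minority of the 64 probes had a signal. The number above 0 was 23, 21, 30, 22, 25 and 35 on psao arrays 1 to 6, and 21, 18, 20, 24, 29 and 27 on WT arrays 1 to 6. The means were 26 ± 5.44 (SD, n = 6) in psao and 23.2 ± 4.26 (SD, n = 6) in WT, and the ranges overlapped. In all, 156 of 384 psao values and 139 of 384 WT values were above 0. Together that was 38.4% of the 768 values, whereas 97.1% of the values of the other 628 1-gene probes were above 0. WT arrays 1 and 2 stood apart less clearly in these 64 probes than in the whole table, since WT array 3, with 20 probes above 0, lay between them.

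Where the 64 probes had a signal, it was mostly faint. The median of their 295 values above 0 was 0.0317, against 0.213 in the other 1-gene probes. Ranked among the signals of its own array, the median value stood at percentile 7.11. The median signal was 0.0542 in psao and 0.0248 in WT, and 48 psao values and 12 WT values lay above 0.1. These intensities are scaled only to the brightest probe of each array, with no further scaling between arrays. The medians of all probes differed in the same direction on every array, and this was not separated from the difference in these 64. The rule also shaped the difference, since it was met in WT alone by 18 probes and in psao alone by 9. Probes that met it in WT alone have few WT signals but not few psao signals by construction. The medians and counts by genotype are therefore not read as a difference between psao and WT. A total of 45 genes never passed 0.1 on any array. The label of near or below detection does not hold on every array: 23 values of 11 genes lay above the median of their array, 15 of them in psao and 8 in WT.

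By number of arrays the 64 probes ranged from none to 9 of 12. No array was above 0 for 7 probes, 1 to 3 arrays for 18, 4 to 6 for 17 and 7 to 9 for 22. The rule was met in both genotypes by 37 probes, in psao alone by 9 and in WT alone by 18. A signal was present on more psao than WT arrays for 28 probes, where 17.8% of all 3439 probes had more psao arrays. It was present on more WT than psao arrays for 21, where 5.93% of all probes had more WT arrays. The remaining 15 had equal numbers. For 41 of the 64 the genotypes differed by at most 1 array. Of all 3439 probes, 2507 had a signal on all 12 arrays and a further 330 on 6 psao and 5 WT arrays. Gaps of at most 1 array were thus a larger share of all probes than of the 64. The rule leaves out all of those 2507 and 330 probes, so the 41 are not read as a result about the 64. With the same 64 probes and arrays 3 to 6 alone, 26 had more psao arrays and 16 more WT arrays. The balance depended on the rule: with at least 3 arrays required in place of 4, 13 probes had more psao arrays and 18 more WT arrays. The choice of probes used this contrast, so nothing is read from these shares.

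**Figure D2:**
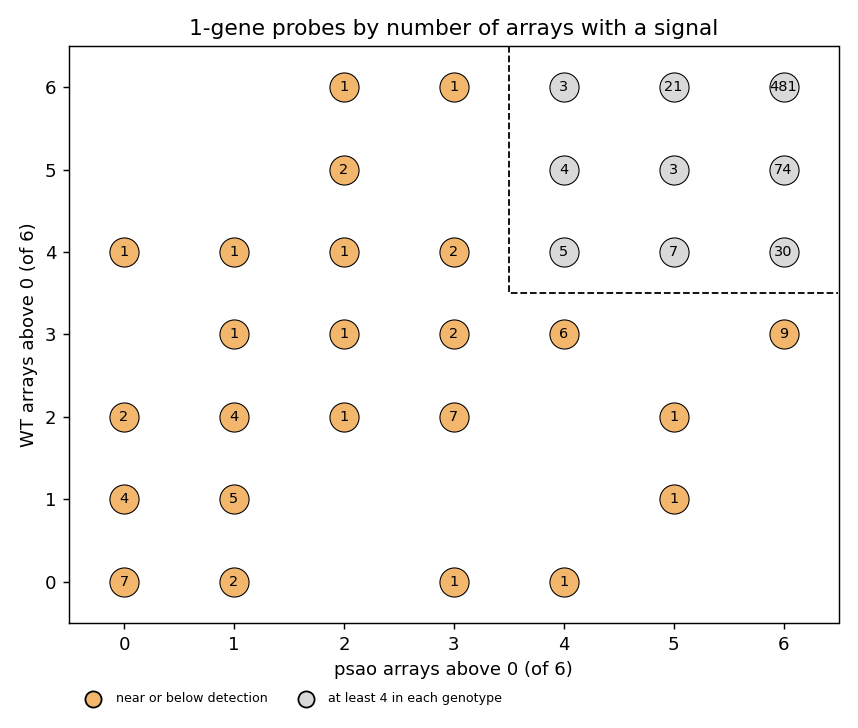
Number of 1-gene probes at each combination of psao arrays above 0 (horizontal axis, 0 to 6) and WT arrays above 0 (vertical axis, 0 to 6), with the 64 near-detection probes in orange and probes with at least 4 arrays in each genotype in grey. The largest orange groups are 9 probes with 6 psao and 3 WT arrays, 7 with no array in either genotype and 7 with 3 psao and 2 WT arrays, whereas 481 probes had a signal on all 12 arrays.

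The 7 genes listed at 0 on every psao and every WT array were UPP, AT5G65220, AT5G25510, AT1G66090, AT3G50350, AT1G68160 and AT5G63460. UPP is uracil phosphoribosyltransferase, the plastid enzyme that salvages uracil for nucleotide synthesis. AT5G65220 encodes a protein of the large subunit of the plastid ribosome, AT5G25510 a regulatory B' subunit of protein phosphatase 2A, and AT1G66090 a protein of the TIR-NBS disease resistance class. Nothing about a difference between psao and WT can be said for these 7 from the deposited values.

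A further 11 genes had a signal in 1 genotype only. No psao array but at least 1 WT array was above 0 for 7 genes, and no WT array but at least 1 psao array for 4. Of all 3439 probes, 19, 7, 4 and 2 had no psao array and 1, 2, 3 or 4 WT arrays above 0. In reverse, 8, 4, 3 and 2 had no WT array and 1, 2, 3 or 4 psao arrays. Every such probe meets the rule, so the 7 and 4 are not read as a result about these genes. IAA31, an Aux/IAA repressor of auxin responses, was above 0 on WT array 2 alone, at 0.0084. AT3G06200, a guanylate kinase, was above 0 on the same array alone, at 0.0282. AT1G10310 had only 0.00572 on WT array 1, and AT5G19370, a protein with rhodanese and prolyl isomerase domains, only 0.00671 on WT array 5. These are each a single faint value in 12 arrays. Among genes above 0 in psao only, AT5G49840, a ClpX-type chaperone of the Clp protease, had 0.0107 on psao array 1 alone and AT5G38360 had 0.00165 on psao array 5 alone. AT5G48130, of the NPH3 family known from phototropism, had 0.0127, 0.0127 and 0.0161 on psao arrays 3, 4 and 6, and all 6 WT arrays were at 0.

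**Figure D3:**
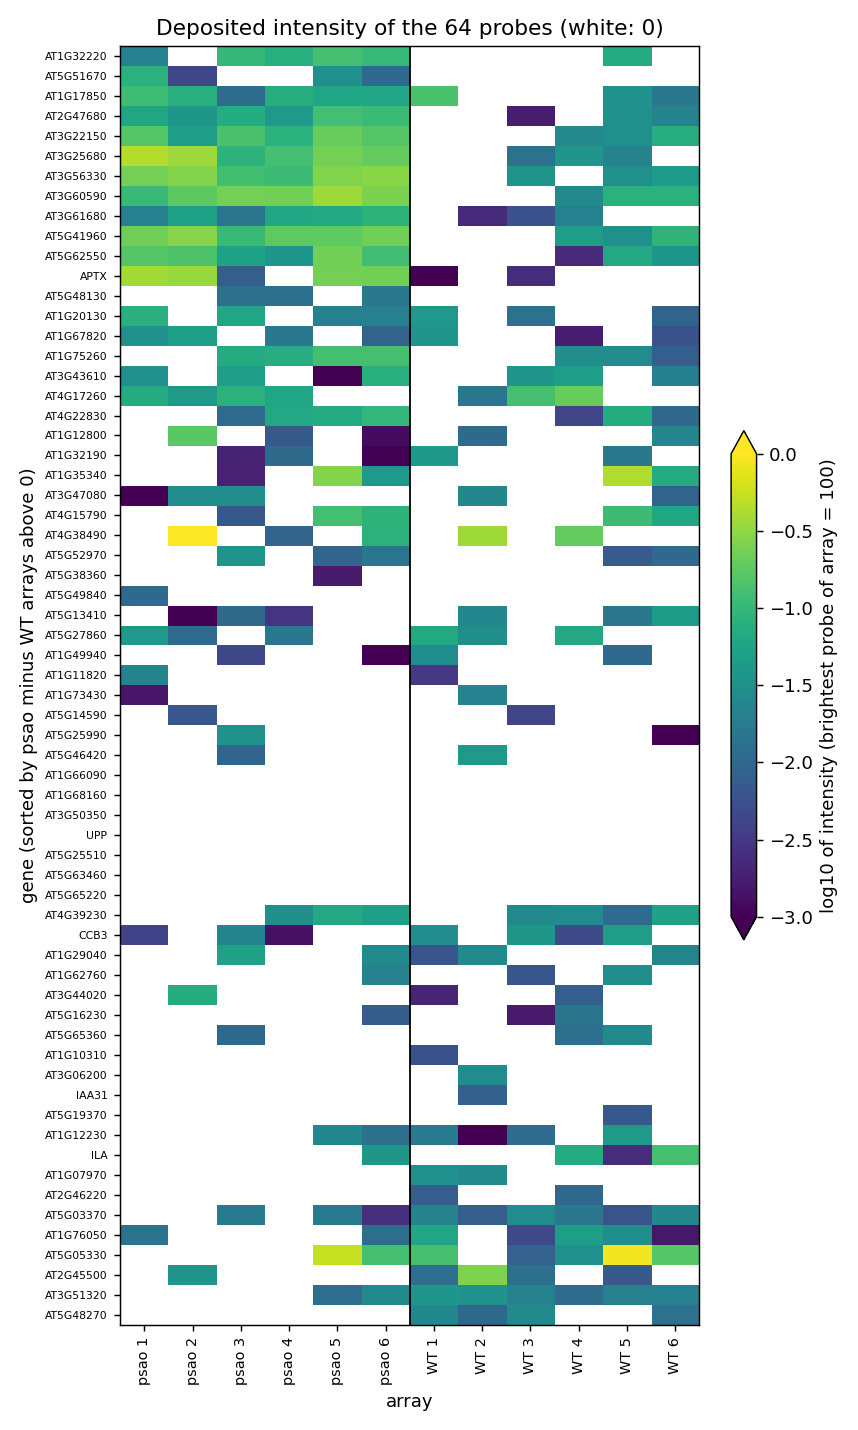
Deposited intensity of the 64 probes (rows, named by gene) on the 6 psao arrays (left) and the 6 WT arrays (right), as the log10 of intensity on a scale where the brightest probe of an array is 100, with white for 0. Rows run from more psao arrays above 0 at the top to more WT arrays at the bottom; the 9 genes with signals on all 6 psao arrays form a filled block at the upper left, and 7 rows are white throughout.

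A group of 9 genes had a signal on all 6 psao arrays and on 3 WT arrays, with median psao intensities from 0.0577 to 0.251. They were AT3G25680, AT3G60590, AT3G56330, AT5G41960, AT5G62550, AT3G22150, AT1G17850, AT2G47680 and AT3G61680. In 7 of the 9, WT arrays 1 and 2 were both at 0. At least 3 more psao than WT arrays were above 0 for 13 genes, these 9 included, where 1.22% of all probes had such a gap. At least 3 more WT than psao arrays were above 0 for 6 genes, where 0.552% of all probes did. A gap of at least 3 arrays leaves at most 3 in the genotype with fewer, so every such probe meets the rule. The 13 and 6 were also all such probes among the 692 1-gene probes. They are therefore not read as an excess over the shares of all probes.

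AT3G56330, a methyltransferase that modifies guanosine in transfer RNA, had intensities of 0.113 to 0.295 with a median of 0.251 on the psao arrays, against 0 to 0.0444 with a median of 0.0162 on the WT arrays. All psao arrays lay above all WT arrays. AT3G25680 had 0.0874 to 0.452 with a median of 0.217 in psao, against 0 to 0.0369 with a median of 0.00654 in WT. Its 2 highest values, 0.452 and 0.36, were on psao arrays 1 and 2, and its genotypes did not overlap. AT5G41960 ran from 0.105 to 0.282 with a median of 0.203 in psao, against 0 to 0.0883 with a median of 0.0159 in WT. AT3G60590 ran from 0.105 to 0.367 with a median of 0.233 in psao, against 0 to 0.0819 with a median of 0.0133 in WT. Both were also without overlap between the genotypes.

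The last of the genes without overlap was AT2G47680, a helicase with a zinc finger, at 0.0384 to 0.126 in psao and 0 to 0.0323 in WT. Every psao array thus lay above every WT array for 5 of the 64, where 15.2% of all probes did so. The reverse held for 0 of the 64, where 4.13% of all probes did so. Such a separation needs a signal on all 6 arrays of the higher genotype. Among the 64 only 9 genes had this in psao, and only AT3G51320 and AT5G03370 in WT. The rule thus caps both counts, which are not comparable with the shares of all probes. WT arrays 1 and 2, with their lower median intensities, were at 0 in each of the 5. With each intensity divided by the median of its array, 3 of the 5 were still without overlap: AT3G25680, AT3G56330 and AT5G41960. On that scale every psao array lay above every WT array for 6.4% of all probes. For AT3G60590 the lowest psao array then stood at 0.388 of its array median and the highest WT array at 0.438. By rank within the array AT2G47680 was without overlap as well, and AT3G60590 was not, where 8.78% of all probes were. On arrays 3 to 6 alone 8 genes were without overlap, the 5 and AT3G22150, AT1G75260 and AT1G32220, where 22.2% of all probes were.

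The other 4 of the 9 overlapped between the genotypes. AT3G22150, a pentatricopeptide repeat protein of the family that binds and processes organelle RNA, had 0.0478 to 0.199 with a median of 0.147 in psao, against 0 to 0.0744 with a median of 0.0127 in WT. Only its psao array 2 lay below the highest WT array. AT5G62550 had 0.0379 to 0.231 in psao and 0 to 0.0645 in WT. AT3G61680, a plastid lipase that feeds fatty acids into seed oil, had 0.015 to 0.088 in psao and 0 to 0.0209 in WT. AT1G17850, of the rhodanese family, had 0.0116 to 0.117 in psao and 0 to 0.138 in WT, and its highest value of all 12 arrays was on WT array 1.

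APTX, an aprataxin-like protein of the kind that repairs broken DNA ends, was among the brightest of the 64 in psao and at or near 0 in WT. Its intensities on psao arrays 1 to 6 were 0.383, 0.34, 0.00819, 0, 0.239 and 0.231. On the WT arrays it had 0.000738 on array 1, 0.00245 on array 3 and 0 on the other 4. Psao arrays 3 and 4 were thus close to WT while the other 4 psao arrays were far above it. AT1G32220, a protein with an NAD(P)-binding fold, had 0.0214, 0, 0.0991, 0.0769, 0.127 and 0.102 on psao arrays 1 to 6, against 0.07 on WT array 5 and 0 on the other 5 WT arrays. AT5G51670 had 0.0832, 0.00446, 0.0318 and 0.0106 on psao arrays 1, 2, 5 and 6 and 0 on psao arrays 3 and 4, and all WT arrays were at 0.

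**Figure D4:**
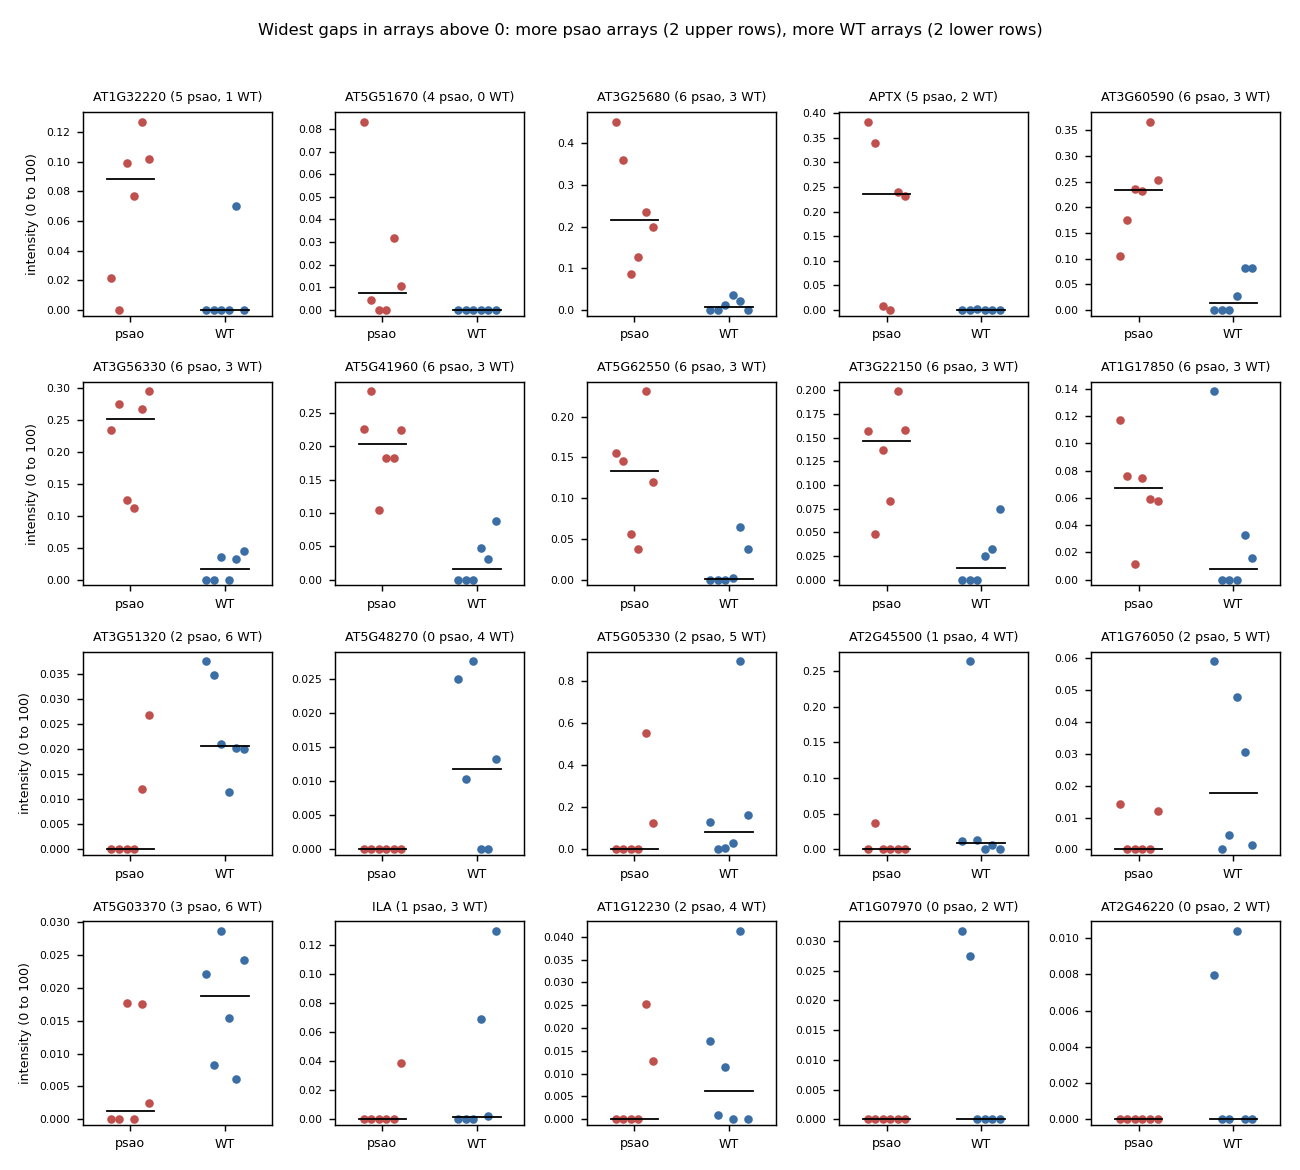
Deposited intensity (scale 0 to 100, linear axes that differ between panels) on each psao array (left in each panel) and WT array (right), with bars at the medians. The upper 2 rows hold 10 genes with at least 3 more psao arrays above 0. The lower 2 rows hold 10 genes with at least 2 more WT arrays above 0. Equal gaps were ordered by the highest intensity, which left out AT2G47680, AT3G61680 and AT5G48130 of the 13 genes with at least 3 more psao arrays. The upper panels reach 0.452 (AT3G25680), and 7 of the lower panels stay under 0.06, with AT5G05330 at 0.892 the brightest.

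Of the 10 genes plotted with a gap toward WT arrays, 7 stayed under 0.06 on every array. The gap was at least 3 arrays in 6 of the 10, and only 2 arrays in ILA, AT1G12230, AT1G07970 and AT2G46220. AT3G51320, a pentatricopeptide repeat protein like AT3G22150, had 0.0121 and 0.0268 on psao arrays 5 and 6 and 0 on psao arrays 1 to 4, against 0.0114 to 0.0375 with a median of 0.0206 on the 6 WT arrays. Its psao arrays 5 and 6 lay within the WT range. AT5G48270 was at 0 on all psao arrays, against 0.025, 0.0104, 0.0276 and 0.0133 on WT arrays 1, 2, 3 and 6 and 0 on WT arrays 4 and 5. AT5G03370, of the acylphosphatase family, had 0 to 0.0177 with a median of 0.00126 in psao, against 0.00608 to 0.0287 with a median of 0.0187 in WT. AT1G76050, a pseudouridine synthase that modifies RNA, had 0.0141 and 0.0119 on psao arrays 1 and 6 and 0 on the others, against 0 to 0.059 with a median of 0.0176 in WT. The genotypes of both genes overlapped. For AT1G76050 this was fixed, since neither genotype had a signal on all 6 arrays.

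The other 3 were AT5G05330, AT2G45500 and ILA. AT5G05330, an HMG-box protein of the kind that binds DNA, had 0.551 and 0.127 on psao arrays 5 and 6 and 0 on psao arrays 1 to 4, against 0.13, 0, 0.00889, 0.0317, 0.892 and 0.161 on WT arrays 1 to 6. Array 5 was highest in both genotypes. AT2G45500, an AAA-type ATPase, had 0.0367 on psao array 2 alone, against 0.264 on WT array 2 and 0 to 0.0127 on the other WT arrays. Array 2 was the highest of AT2G45500 in both genotypes. ILA, a relative of the yeast translation regulator GCN1, had 0.0386 on psao array 6 alone, against 0.0693, 0.00238 and 0.13 on WT arrays 4, 5 and 6. Back among the fainter genes, AT1G12230, a transaldolase of the pentose phosphate pathway, had 0.0253 and 0.0128 on psao arrays 5 and 6, against 0 to 0.0413 with a median of 0.00617 in WT. AT1G07970 was above 0 only on WT arrays 1 and 2, at 0.0317 and 0.0274, and AT2G46220 only on WT arrays 1 and 4, at 0.00795 and 0.0104.

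The RefSeq gene table gave a symbol beyond the locus code to 5 of the 64 genes (UPP, IAA31, ILA, CCB3 and APTX), 7.81%, and to 87 of the other 628, 13.9%. Roles of the other genes are therefore background knowledge of Arabidopsis loci. With that background 34 genes were sorted by role after their values were known, and 30 were left unsorted. Some of the unsorted genes have a protein family named here, such as AT2G47680 and AT2G45500, so the counts by role depend on the sorting. The counts by role are a description only. Beside them, 28 of all 64 genes had more psao arrays above 0, 21 more WT arrays and 15 equal numbers. Of all 3439 probes, 17.8% had more psao arrays and 5.93% more WT arrays. The rule used this contrast, so no lean of a role is read from its counts.

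Of 8 genes for RNA and translation, 3 had more psao arrays above 0, 3 more WT arrays and 2 equal numbers. Besides those described, AT1G12800, with an S1 domain that binds RNA, had 0.169, 0.00702 and 0.00122 on psao arrays 2, 4 and 6, against 0.011 and 0.0242 on WT arrays 2 and 6. AT5G46420, a RimM-type factor for maturation of small-subunit ribosomal RNA, had only 0.0096 on psao array 3 and 0.0422 on WT array 2. The pentatricopeptide repeat genes and the RNA-modifying enzymes named above each included one with more psao arrays, AT3G22150 and AT3G56330, and one with more WT arrays, AT3G51320 and AT1G76050.

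The 3 genes for thylakoid proteins were faint in both genotypes. CCB3, which helps attach a heme to cytochrome b6, had 0.00401, 0.0221 and 0.00136 on psao arrays 1, 3 and 4, against 0.0295, 0.0383, 0.00504 and 0.0484 on WT arrays 1, 3, 4 and 5. AT5G13410, an FKBP-type prolyl isomerase, had 0.000348, 0.0109 and 0.00281 on psao arrays 2 to 4, against 0.0248, 0.0154 and 0.0433 on WT arrays 2, 5 and 6. AT5G52970, a thylakoid lumen protein, had 0.036, 0.0094 and 0.0151 on psao arrays 3, 5 and 6, against 0.00722 and 0.0106 on WT arrays 5 and 6. Each of the 3 had 3 psao arrays above 0, with 4, 3 and 2 WT arrays. None had a signal on all 6 arrays of a genotype, so their genotypes could only overlap.

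Of 9 metabolic enzymes, 2 had more psao arrays above 0, 5 more WT arrays and 2 equal numbers. AT4G17260, lactate dehydrogenase of fermentation, had 0.071, 0.0429, 0.0848 and 0.0601 on psao arrays 1 to 4, against 0.0149, 0.131 and 0.202 on WT arrays 2, 3 and 4. It was at 0 on arrays 5 and 6 of both genotypes. AT4G39230, of the phenylcoumaran benzylic ether reductase family, had 0.0312, 0.0653 and 0.0492 on psao arrays 4 to 6, against 0.0113 to 0.0531 on WT arrays 3 to 6. AT5G14590, an NADP-dependent isocitrate dehydrogenase, had 0.00659 on psao array 2 and 0.00421 on WT array 3. AT5G16230, an acyl-carrier-protein desaturase that makes unsaturated fatty acids, had 0.00766 on psao array 6, against 0.00163 and 0.0148 on WT arrays 3 and 4. None of these 4 had a signal on all 6 arrays of a genotype, so a separation of the genotypes was not possible.

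Signalling genes numbered 5, of which 2 had more psao arrays above 0, 1 more WT arrays and 2 equal numbers. AT1G67820, a protein phosphatase 2C, had 0 to 0.0489 with a median of 0.0122 in psao, against 0 to 0.0362 with a median of 0.000867 in WT. Of the genes for DNA and chromatin, AT5G65360, a histone H3.1, had 0.01 on psao array 3, against 0.0128 and 0.0263 on WT arrays 4 and 5. AT3G43610, of the gamma-tubulin complex family that nucleates microtubules, had 0 to 0.0781 in psao and 0 to 0.0482 in WT. AT1G73430, of the COG complex that tethers Golgi vesicles, had only 0.00153 on psao array 1 and 0.0211 on WT array 2. The cell wall genes were as sparse: AT1G11820, a glucanase-like glycosyl hydrolase, was above 0 on array 1 of each genotype, and AT1G62760, a pectin methylesterase inhibitor, on 1 psao and 2 WT arrays.

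The remaining genes are given by their number of arrays above 0. With 1 psao and 1 WT array there was AT5G25990, and with 1 psao and 2 WT arrays AT3G44020. AT1G49940 had 2 arrays of each genotype, AT1G29040 had 2 psao and 3 WT arrays, and AT5G27860 had 3 of each. With 3 psao and 2 WT arrays there were AT4G38490, AT4G15790, AT3G47080, AT1G35340 and AT1G32190, besides AT1G12800 and AT5G52970. With 4 psao and 3 WT arrays there were AT1G20130, AT1G75260 and AT4G22830, besides AT1G67820, AT3G43610 and AT4G17260. Among these, AT1G75260 had 0.0695, 0.0748, 0.13 and 0.129 on psao arrays 3 to 6, against 0.0299, 0.0282 and 0.00783 on WT arrays 4 to 6, and was at 0 on arrays 1 and 2 of both genotypes.

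In several genes signals sat on the same array numbers in both genotypes. AT1G35340, with the substrate-binding domain of Lon-type proteases, had 0.277 and 0.041 on psao arrays 5 and 6, against 0.44 and 0.0693 on WT arrays 5 and 6, and at most 0.0019 elsewhere. AT4G15790 had 0.126 and 0.0881 on psao arrays 5 and 6, against 0.114 and 0.0637 on WT arrays 5 and 6, and at most 0.00673 elsewhere. AT4G38490 held the highest value of all 64 probes, 2.16 on psao array 2, and its highest WT value, 0.371, was also on array 2. These genes were chosen here after their values were seen.

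Over all 64 probes, arrays numbered 5 and 6 were alike across the genotypes in which probes had a signal. Each psao array 5 or 6 and each WT array 5 or 6 had the same state, above 0 or at 0, for 75% of the probes, in all 4 pairings. In the other 32 pairings of a psao with a WT array the share was 39.1% to 71.9%, with a median of 57.8%. Among those 32, psao arrays 1 and 2 against WT arrays 1 and 2 gave 51.6% to 64.1%. Psao arrays 3 and 4 against WT arrays 3 and 4 gave 53.1% to 71.9%. The likeness of arrays 5 and 6 across the genotypes was thus not a trait of every array number. Arrays of 1 genotype shared the state of 64.1% to 81.2% of probes where they were numbered 1 and 2, 3 and 4, or 5 and 6, and of 42.2% to 79.7% otherwise. These shares depend on how many probes each array has above 0, and the labels do not say what an array number stands for.

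The border of the rule runs through similar probes. Just inside it, 20 probes had exactly 3 arrays above 0 in the genotype with fewer, and the highest value of each lay between 0.0287 and 0.452 with a median of 0.111. Just outside, 49 probes had exactly 4, and their highest values lay between 0.0224 and 0.756 with a median of 0.182. Of the 49, 30 had a signal on all 6 psao arrays and 4 WT arrays, and in 25 of these 30 the missing WT arrays were 1 and 2. Using arrays 3 to 6 alone, with at least 3 of 4 arrays required, 58 probes met the rule, and 52 of them were among the 64.

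Probes paired with 1 gene met the rule in 9.25% of cases, probes paired with several genes in 7.47% (65 of 870) and probes not listed in the annotation in 6.55% (123 of 1877). The genes of the 64 also stood among those of 9 probes paired with several genes, from which no gene is named here.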

How the data were processed

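The deposited table held 1 intensity for each of 3439 probes on 12 arrays. The deposited intensities are linear, never negative, hold exact zeros and are scaled so that each array's brightest probe is 100, as the values show. No source used here gives background treatment, labelling or spot averaging. Groups and array numbers came from sample titles. The platform annotation listed 1562 probes, 692 of them with 1 gene, and 690 of these matched the RefSeq table of assembly TAIR10.1. No coordinates are printed, because no build was named.

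Values above 0 were counted as signals, with no normalization beyond the deposited scale. The chosen probes and the roles were set with earlier results of these data known. Values per array were given for genes with at most 1 array in one genotype and at least 4 in the other, the 10 widest gaps each way (ties by the highest intensity, then the locus), the 5 highest intensities and genes at 0 throughout (29 genes), and for some others chosen after their values were seen. Key words of the gene table were too few to sort genes as planned. The share of probes at 0 was tested by exact permutation, two-sided, in Python 3.11.15 with SciPy 1.17.1, and p-values measure only the spread between arrays.

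Deviations of same-numbered psao and WT arrays from their group means correlated over 2507 probes with r from 0.118 to 0.243. Arrays of different numbers were not correlated in this way, so these values do not show that the numbers are pairs. The main test left the arrays unpaired, and pairing by number was an alternative. For arrays, their number limits the precision. Alternatives were other limits, other floors for a signal, arrays left out, and couples (arrays 1 and 2, 3 and 4, 5 and 6) averaged.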

Additional observations from a re-analysis of the deposited data

Results flagged for a closer look

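In some genes 1 array stood far from the other 5 of its genotype. In AT4G38490, psao replicate 2 stood at 2.16, with the next psao array at 0.0843. In AT5G05330, replicate 5 was far above the rest in both genotypes, at 0.551 in psao and 0.892 in WT, and in AT1G35340 likewise, at 0.277 in psao and 0.44 in WT. In AT2G45500, replicate 2 was far above the rest in both genotypes, at 0.0367 in psao and 0.264 in WT. WT replicate 5 of AT1G32220 at 0.07 and psao replicate 6 of ILA at 0.0386 were, like psao replicate 2 of AT2G45500, the only arrays of their genotype above 0. WT replicate 1 of AT1G17850 stood at 0.138, and WT replicate 3 of APTX at 0.00245, a value that is itself near 0. In all, 44 sets of 6 values were examined and 11 held such an array. Chance flags about 1 in 20 sets of normally distributed values. That rate is not a yardstick here, because many of these sets hold zeros and some genes were examined for their high values.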

How the results depend on the processing

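The difference in the share of probes at 0 kept its direction and did not pass the test in any of 18 alternatives, with exact permutation p from 0.125 to 0.7. With the array number as a replicate block it was -2.81 percentage points with an exact p of 0.125, and leaving out 1 array at a time gave -3.6 to -1.51, with -1.64 and -1.51 without WT replicate 1 or 2. With couples averaged, 3 against 3 cannot go below an exact p of 0.1.

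The number of probes that met the rule, 64 as given, was 44 with at least 3 arrays required and 113 with at least 5. It was 79 with a signal counted above 0.01 and 104 with a signal counted above 0.02. Probes with more psao arrays above 0 numbered 28, and with more WT arrays 21, under the rule as given. These counts were 13 and 18 with at least 3 arrays required, which turns the balance, 65 and 28 with at least 5, and 52 and 25 with the floor of 0.02. Leaving out 1 array while still requiring 4 gave 69 to 106 probes, 17 to 71 with more psao arrays and 16 to 33 with more WT arrays. By construction this asks more of the shortened genotype and lowers its count, and without any 1 psao array the probes with more WT arrays were the larger number. The 71 came without WT replicate 3 and the 17 without psao replicate 6. Genes without overlap, 5 as deposited, were 3 after division by the array median (6.4% of all probes), 8 on arrays 3 to 6 (22.2%) and 5 to 6 with 1 array left out (15.5% to 17.1%), alternatives added after seeing the data. The depth behind an intensity of 0 is unknown.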

Other observations

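Probes that met the rule, of any annotation, were unevenly spread over the probe numbers of the table. In blocks of 200 numbers their share ran from 3.12% (numbers 4201 to 4400, 5 of 160 probes) to 14.7% (numbers 4401 to 4600, 23 of 156), with 14.1% at numbers 1801 to 2000, against 7.33% of all probes. Each of the 2 blocks with the highest shares held 5 of the 64 genes, as did 3 of the other blocks. No source used here says what a probe number stands for on the array.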
